A study of Mus musculus with 6 samples.

Results

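The assembled lncRNAs described here are the 201 transcripts to which Cuffcompare gave class code o, out of 18573 in the deposited table. A transcript of this class shares exonic bases with a known transcript on the same strand but none of its splice junctions. The known gene that it overlaps is called its host below. The 201 transcripts had 165 hosts by the gene column and came from 164 assembled loci. The other classes in the table were intergenic transcripts (class u, 15982), transcripts with exonic overlap on the opposite strand (class x, 1551) and transcripts that share a junction with a known gene (class j, 839).

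Spermatogonial stem cells (SSCs) from testis were compared with female germline stem cells (FGSCs) from ovary, each sequenced as 3 strand-specific libraries of rRNA-depleted RNA. The labels give the strain C57BL/6 for both, with SSCs from mice of 3 to 5 days and FGSCs from mice of 6 days, whereas the methods of the study give these ages the other way round. According to these methods both cell types came from pooled Ddx4-Cre; mT/mG mice, in which Cre driven by the germ cell promoter of Ddx4 switches on GFP, and were sorted for GFP. The table holds 1 FPKM (sequenced fragments scaled to transcript length and to library size) per transcript for SSCs and 1 for FGSCs, pooled by the authors over the 3 libraries. Values therefore carry no SD and no n, no difference was tested against the spread between replicates, and the reads behind a transcript are unknown. Marker mRNAs of SSCs, FGSCs and other gonadal cells were not analysed here, and in bulk RNA fewer cells of a type and less RNA per cell cannot be told apart.

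Many small RNAs are cut from, or lie inside, longer transcripts. A miRNA is processed from a long primary transcript, most vertebrate snoRNAs are released from introns of a host transcript, and spliceosomal snRNAs have short genes with their own promoters. The mature small RNA pairs with other RNA: a miRNA with target mRNAs, a snoRNA with the rRNA that it modifies, and a U snRNA with the splice sites of a pre-mRNA. An FPKM given below is that of the assembled transcript over such a gene, not of the mature small RNA.

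Among the 201 transcripts, 194 had hosts that matched GENCODE M21 and 7 did not. By the type of the host there, 87 (43.3%) lay over small RNA genes, with 33 over miRNA genes, 23 over snoRNA or scaRNA genes, 16 over snRNA genes and 15 over other small RNA genes. These 15 include 1 over mt-Rnr2, a mitochondrial rRNA of 1582 bp, which is not a small RNA. A further 58 lay over lncRNA genes, 28 over pseudogenes and 21 over protein-coding genes. In 149 of the 201 the host transcript had 1 exon, and so no junction that could be shared. The definition of the class thus favours hosts of 1 exon. Hosts of the other classes were not typed, so that these shares are not set against theirs. The small RNA hosts had a median length of 116 bp, against a median of 17259 bp for the assembled loci around them, introns included. Of the 87, 12 had their small RNA overlapping an exon of any annotated transcript of another lncRNA or coding gene on the same strand. Other transcripts of that gene may have an intron there. A further 16 had it in an intron, and 59 lay in no such gene.

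The sequences of 3 hosts are shown first because the results turn on them: the minor spliceosome snRNAs U11 (Rnu11) and U12 (Rnu12), and the snoRNA Snora24, whose locus gave transcripts with opposite differences. Sequences are GENCODE M21 transcripts on GRCm38, written as DNA. Capitals mark AATTTTT in the snRNAs, letters of the kind bound by Sm proteins, and ACA near the 3′ end of Snora24, the box that names the H/ACA snoRNAs.
Rnu11: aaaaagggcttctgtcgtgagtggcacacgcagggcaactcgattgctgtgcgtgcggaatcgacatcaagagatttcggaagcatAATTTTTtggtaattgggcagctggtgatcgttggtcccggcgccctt
Rnu12: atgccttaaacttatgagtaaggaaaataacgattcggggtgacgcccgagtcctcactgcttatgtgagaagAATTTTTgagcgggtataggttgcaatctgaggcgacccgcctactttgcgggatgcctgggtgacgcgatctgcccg
Snora24: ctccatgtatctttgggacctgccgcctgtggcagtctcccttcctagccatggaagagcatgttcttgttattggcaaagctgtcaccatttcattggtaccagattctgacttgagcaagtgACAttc

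AATTTTT, searched on the transcribed strand, stood in 6 of the 15 snRNA hosts (40.0%) and in 83 of all 1383 annotated snRNA transcripts (6.00%). The box ACA, 3 bases before the 3′ end, stood in 5 of 17 snoRNA hosts (29.4%) and in 276 of all 1507 annotated snoRNA transcripts (18.3%). Rnu11 lies on chromosome 4 from 132270080 to 132270213 on the minus strand, and Rnu12 on chromosome 15 from 83149644 to 83149794 on the plus strand.

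The miRNAs over which class o transcripts were measured are shown in the same way, from RefSeq on GRCm38.p6, with the seed (bases 2 to 8, the part that pairs with targets) in capitals. The set holds the cluster of Mir17hg, the pair of Mir16-1 and Mir15a at Dleu2, and miRNAs at loci with the higher level in SSCs (Mir193b, Mir882), with the higher level in FGSCs but short of the limit used below (Mir31), or with close levels (Mir425).
mmu-miR-17-5p: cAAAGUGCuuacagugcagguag
mmu-miR-20a-5p: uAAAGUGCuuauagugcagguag
mmu-miR-18a-5p: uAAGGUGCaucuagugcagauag
mmu-miR-19a-3p: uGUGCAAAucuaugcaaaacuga
mmu-miR-19b-3p: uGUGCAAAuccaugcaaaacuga
mmu-miR-92a-3p: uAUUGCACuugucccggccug
mmu-miR-15a-5p: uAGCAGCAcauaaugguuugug
mmu-miR-16-5p: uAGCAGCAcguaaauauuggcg
mmu-miR-193b-3p: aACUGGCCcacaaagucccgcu
mmu-miR-882: aGGAGAGAguuagcgcauuagu
mmu-miR-31-5p: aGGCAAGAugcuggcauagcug
mmu-miR-425-5p: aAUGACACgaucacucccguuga

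Among these, 3 seeds were shared: AAAGUGC by miR-17-5p and miR-20a-5p, GUGCAAA by miR-19a-3p and miR-19b-3p, and AGCAGCA by miR-15a-5p and miR-16-5p.

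Most class o transcripts were low in both cell types, and more of them were higher in FGSCs than in SSCs. The median was 0.426 FPKM in SSCs, against 0.626 FPKM in FGSCs, 44 transcripts reached 1 FPKM in SSCs and 66 in FGSCs, and 5 were above 10 FPKM in either. At 0.5 FPKM or more, 32 transcripts were seen in SSCs but not FGSCs, 60 in FGSCs but not SSCs and 59 in both. Another 50 were under this level in each. Over all 18573 transcripts the same counts were 4126, 5851 and 2042, with 6554 under the level. Class o thus had the larger part in both cell types, 59 of the 151 that reached the level. This part was 161 of 413 in class j, 400 of 1167 in class x and 1422 of 10288 in class u. A larger part than in class u was therefore not particular to class o. In SSCs 19 of the 201 were listed at 0, and in FGSCs 4. Of all 18573, 3507 were listed at 0 in SSCs and 1329 in FGSCs.

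**Figure D1:**
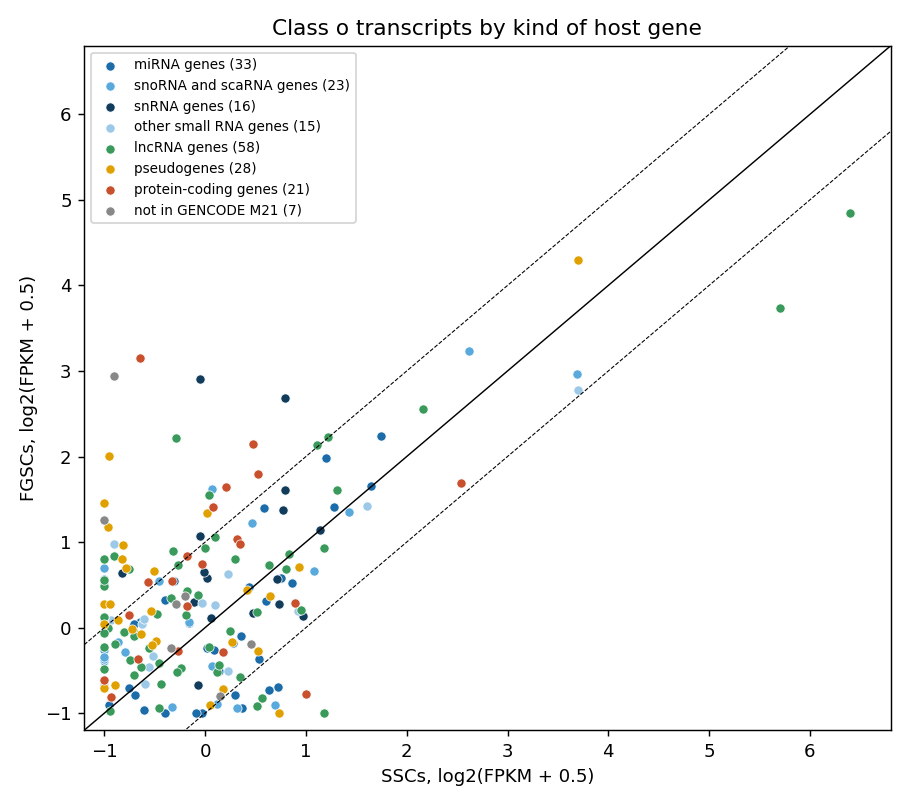
Level of each of the 201 class o transcripts in SSCs (x axis) and FGSCs (y axis), both as log2(FPKM + 0.5), with 1 point per transcript coloured by the kind of its host. The solid line marks equal levels and the dashed lines a difference of 1 on this scale; the 2 points at the right, both of Gm26917, had the highest levels in SSCs.

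A difference is log2(FPKM + 0.5) in SSCs minus the same in FGSCs, a scale that understates the change of low transcripts, and it was counted when it passed 1 in either direction and the transcript had at least 0.5 FPKM in either cell type. Of the 151 transcripts with this level, 14 were higher in SSCs (9.27%), against 23.2% of the 12019 transcripts of all classes, and 44 were higher in FGSCs (29.1%), against 31.0%. In either direction the share was 38.4% of class o transcripts and 54.2% of all. The median difference was -0.50 over the 151 transcripts and -0.42 over the 12019, and no test of these shares was run. The share of counted differences that were higher in SSCs was 24.1% as deposited, 35.1% with the medians of both cell types made equal and 34.5% after quantile normalization. Over all classes this share was 42.8%, 49.7% and 55.8% in the same order, so that it stayed lower in class o.

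Counts by kind of host are of transcripts, and transcripts of 1 place share reads. Over all classes 23.2% of transcripts with the level were higher in SSCs and 31.0% in FGSCs. Over miRNA genes, 4 of the 25 transcripts with the level were higher in SSCs and 0 in FGSCs, with a median difference of 0.17. These counts depended on the pseudocount: with 0.1 FPKM they were 6 and 6, with Mir31, Mir378d, Mir5627, Mir7655, Mir804 and Mir8120 on the FGSC side, and with 1 FPKM they were 0 and 0. Over snRNA genes the counts were 0 and 4 of 15, with a median of -0.57. They were 1 and 4 with a pseudocount of 0.1 FPKM, and 0 and 2 with 1 FPKM. Over snoRNA and scaRNA genes 3 of 16 were higher in SSCs, all at 1 place, and 6 in FGSCs, at 4 places. With a pseudocount of 1 FPKM these were 1 and 2. Pseudogenes had 1 of 22 higher in SSCs and 11 in FGSCs, the latter at 9 places (median -0.998). Protein-coding genes had 1 and 7 of 17 (median -0.88), and lncRNA genes 5 and 11 of 38, at 4 and 7 places (median -0.42). With a pseudocount of 0.1 FPKM these counts were 4 and 13, 1 and 10, and 9 and 16 in the same order. With 1 FPKM they were 1 and 6, 1 and 5, and 3 and 4.

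**Figure D2:**
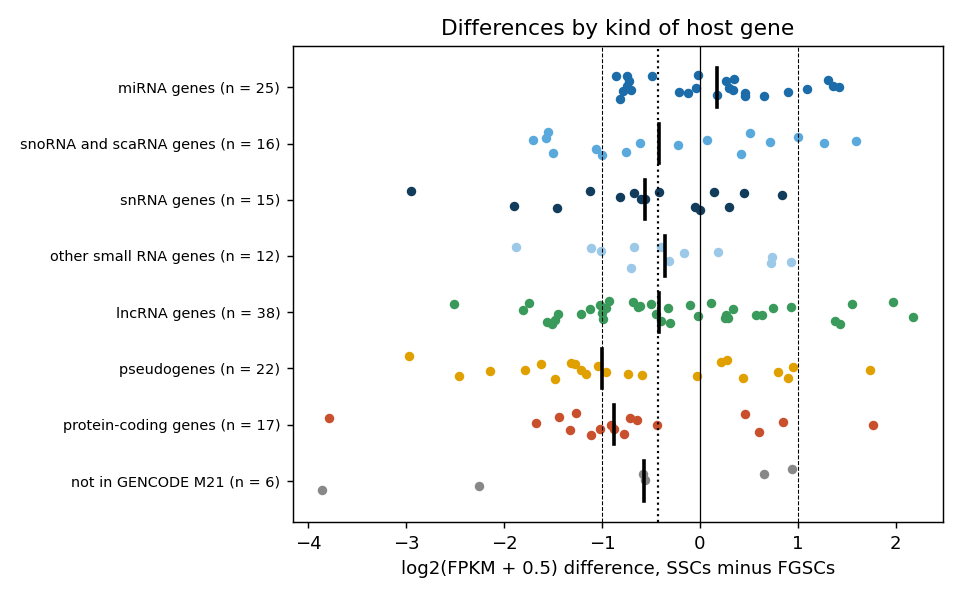
Difference of each class o transcript with 0.5 FPKM or more in SSCs or FGSCs, as log2(FPKM + 0.5) in SSCs minus FGSCs (x axis), by kind of host (rows). Black bars are medians, dashed lines the limit of 1 in each direction and the dotted line the median of all 12019 transcripts (-0.42). At this pseudocount points over miRNA genes do not reach the limit on the FGSC side, nor points over snRNA genes on the SSC side, whereas with 0.1 FPKM 6 and 1 do.

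The transcripts at the snRNA genes Rnu12 and Rnu11 were among the 10 with the largest differences towards FGSCs. Over all snRNA genes, 4 of the 15 transcripts with the level were higher in FGSCs (26.7%), against 31.0% of all transcripts. Higher in SSCs were 0, against 23.2% of all transcripts. U11 and U12 recognise the introns of the minor class, a small group in the genome. The transcript at Rnu12 had 0.468 FPKM in SSCs, against 6.996 FPKM in FGSCs, a difference of -2.95. At Rnu11 the levels were 1.23 FPKM in SSCs, against 5.94 FPKM in FGSCs (-1.90). Both minor spliceosome loci were thus higher in FGSCs. Each has other annotated genes elsewhere with at least 90% identity over 80% of its length, 2 for Rnu11 and 3 for Rnu12, so that reads from these copies could be counted here.

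Across all 16 transcripts over snRNA genes, 11 had the higher value in FGSCs. Of the 15 with the level it was also 11, against 96 of 151 in class o and 6956 of 12019 over all classes. A transcript over Gm24056 in an intron of Rbfox2 had 1.70 FPKM in SSCs, against 1.70 FPKM in FGSCs, the smallest difference among transcripts with at least 1 FPKM in both.

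**Figure D3:**
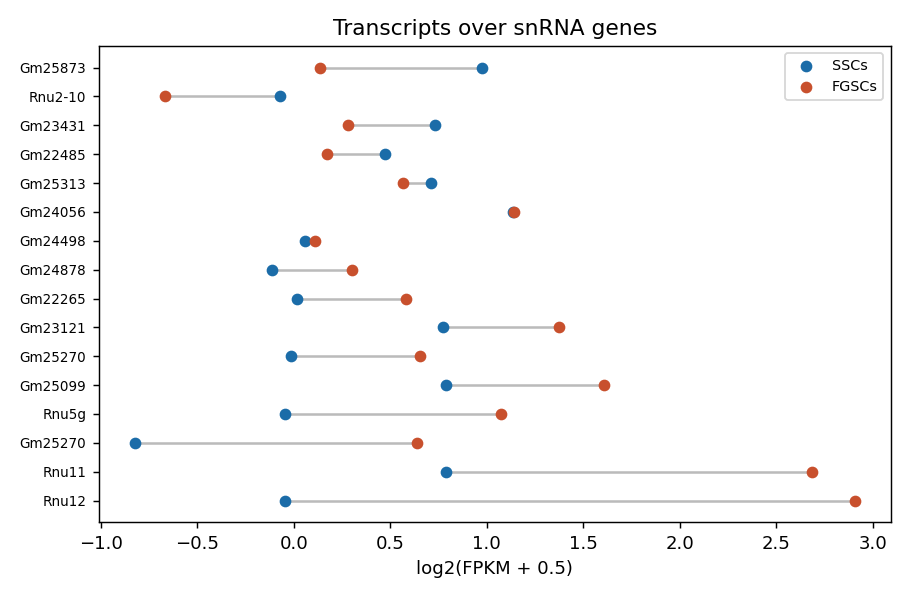
Level of the 16 class o transcripts over snRNA genes in SSCs and FGSCs as log2(FPKM + 0.5) (x axis), with 1 row per transcript and a grey line that joins both values. Rows run by the difference, with Gm25873 (1.46 FPKM in SSCs, 0.600 FPKM in FGSCs) at the top and Rnu12 at the bottom.

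Over miRNA genes the transcripts higher in SSCs lay at 3 places. At Mir193b, on chromosome 16 from 13447958 to 13453693, the transcript had 1.15 FPKM in SSCs, against 0.117 FPKM in FGSCs, 9.81-fold higher (1.42 on the log2 scale, 0.94 with a pseudocount of 1). One transcript over Gm24017 had 1.05 FPKM in SSCs, against 0.102 FPKM in FGSCs (1.36), and Gm24017 has 4 similar annotated genes elsewhere. The third place was Mir882.

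The Mir882 locus, on chromosome 12 from 109673062 to 109684039, lies between the lncRNA genes Rian and Mirg. This is the imprinted Dlk1-Dio3 region, where the maternal chromosome expresses long transcripts that carry snoRNAs and miRNAs. It held 7 class o transcripts, 4 over Mir882 and the others over the snoRNA genes Gm23347 and Gm23736. All 7 had the higher value in SSCs, 5 passed the limit (1 with a pseudocount of 1), and the other 2 were under the level. The sum of their FPKM was 4.604 in SSCs, against 0.205 in FGSCs, 22.5-fold higher, with single values of 0.157 to 1.12 FPKM in SSCs and at most 0.077 FPKM in FGSCs. Further along the region the differences were smaller. Mir654 had transcripts at 1.02 and 0.779 FPKM in SSCs, against 0.736 and 0.432 FPKM in FGSCs. Mir666 had 0.944 and 0.852 FPKM in SSCs, against 0.275 and 0.893 FPKM in FGSCs. The list of imprinted genes found no host by symbol, so this region was singled out after its values were seen.

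Mir17hg, the host transcript of the miR-17 to miR-92a cluster, known for promoting proliferation, had 3 class o transcripts. The most abundant had 1.83 FPKM in SSCs, against 4.17 FPKM in FGSCs (-1.002, just past the limit, and -0.81 with equal medians). The others had 0.038 and 0.018 FPKM in SSCs, against 0.374 and 0.00881 FPKM in FGSCs. At Mir16-1, whose miRNA shares its seed with that of Mir15a in the lncRNA gene Dleu2, the levels were 2.62 FPKM in SSCs, against 2.66 FPKM in FGSCs. Mir425 had 1.19 FPKM in SSCs, against 0.998 FPKM in FGSCs. Mir31 had 3 transcripts, with 0.397, 0.113 and 0 FPKM in SSCs, against 0.541, 0.529 and 0.117 FPKM in FGSCs. Their sums were 0.510 FPKM in SSCs, against 1.19 FPKM in FGSCs (-0.74). Transcripts over miRNA genes in introns of coding genes did not pass the limit: Mir5119 in Cdk12 had 1.79 FPKM in SSCs, against 3.45 FPKM in FGSCs, and Mir28a in Lpp had 1.32 FPKM in SSCs, against 0.937 FPKM in FGSCs.

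Among snoRNA hosts, Gm26173 had 3 transcripts that were listed at 0 in SSCs and had 1.13, 0.985 and 0.918 FPKM in FGSCs. Gm26080 had 0.548 FPKM in SSCs, against 2.57 FPKM in FGSCs (-1.55). Snora24 is a snoRNA that overlaps an exon of an annotated transcript of the host gene Snhg8. It had 1 class o transcript with 12.4 FPKM in SSCs, against 7.33 FPKM in FGSCs. Another had 5.64 FPKM in SSCs, against 8.92 FPKM in FGSCs. Summed over both, its level was 18.03 FPKM in SSCs, against 16.2 FPKM in FGSCs (0.15). Scarna13, a scaRNA in an intron of Snhg10, had 1.61 FPKM in SSCs, against 1.08 FPKM in FGSCs, and Snord13 had 0.881 FPKM in SSCs, against 1.83 FPKM in FGSCs.

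Of the other small RNA hosts, the 5S rRNA gene n-R5s196 had the highest level, 12.5 FPKM in SSCs, against 6.33 FPKM in FGSCs (0.93). Gm22038 had 2 transcripts higher in FGSCs, with 0.035 and 0.000142 FPKM in SSCs, against 1.47 and 0.585 FPKM in FGSCs. The class o transcript over mt-Rnr2, the mitochondrial rRNA counted with this group, had 0.162 FPKM in SSCs, against 0.133 FPKM in FGSCs. These values are not the level of the rRNA itself.

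Over lncRNA genes, the highest levels of the class were those of Gm26917, on chromosome 17 from 39842996 to 39848831. Its transcripts had 84.1 and 51.6 FPKM in SSCs, against 28.3 and 12.8 FPKM in FGSCs, which gave differences of 1.55 and 1.97. RefSeq places Rn18s-rs5, a pseudogene related to 18S rRNA, in this locus, and the libraries were depleted of rRNA. The part of rRNA reads in these values was not tested. After quantile normalization the difference of the more abundant transcript was 0.30. Gm26917 made up 46.3% of the FPKM summed over class o in SSCs and 14.6% in FGSCs. Without it the sums were 157 FPKM in SSCs, against 239.6 FPKM in FGSCs.

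Gm11884, a lncRNA gene on chromosome 4, had 1.76 FPKM in SSCs and was listed at 0 in FGSCs. C430002E04Rik, named Platr4 in GENCODE M21 and known from mouse embryonic stem cells, had 0.977 FPKM in SSCs, against 0.066 FPKM in FGSCs (1.38). On the FGSC side, Gm6658, which lies opposite Chd9, had 0.317 FPKM in SSCs, against 4.15 FPKM in FGSCs (-2.51). Gm27028, on chromosome 1, had 7 transcripts, each with the higher value in FGSCs, and their sums were 2.87 FPKM in SSCs, against 10.04 FPKM in FGSCs (-1.64). Close levels were seen at 2610037D02Rik, whose main transcript had 1.28 FPKM in SSCs, against 1.31 FPKM in FGSCs, and at B9d1os, with 1.24 FPKM in SSCs, against 1.11 FPKM in FGSCs.

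Over protein-coding genes the largest difference was at Osgep, which encodes the catalytic subunit of the KEOPS complex that modifies tRNA. Its class o transcript had 0.141 FPKM in SSCs, against 8.36 FPKM in FGSCs (-3.79). Values given for coding genes are those of the class o transcript over the gene, not of its mRNA. At Nhej1, the gene of a DNA end-joining factor, the level was 0.556 FPKM in SSCs, against 2.15 FPKM in FGSCs (-1.33). The known Nhej1 transcript that it overlaps is 65 bp long. Sdk1, a cell adhesion gene, had 0.888 FPKM in SSCs, against 3.91 FPKM in FGSCs (-1.67), and Unc5d, a netrin receptor gene, had 0.940 FPKM in SSCs, against 2.97 FPKM in FGSCs (-1.27). Zfp951, a zinc finger gene, was the coding host higher in SSCs, with 1.49 FPKM in SSCs, against 0.086 FPKM in FGSCs (1.77). Mob2 had 5.31 FPKM in SSCs, against 2.72 FPKM in FGSCs (0.85), and Srsf12, a splicing regulator gene, had 0.092 FPKM in SSCs, against 0.609 FPKM in FGSCs (-0.90).

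Pseudogenes were mostly processed copies (25 of 28 transcripts). Gm13823 had 0.015 FPKM in SSCs, against 3.53 FPKM in FGSCs (-2.97). Gm14016, which is 91.8% identical to Eif5a, was listed at 0 in SSCs and had 2.25 FPKM in FGSCs. Oaz1-ps, 99.7% identical to Oaz1, had 0.065 FPKM and a listing at 0 in SSCs, against 1.24 and 0.527 FPKM in FGSCs. Gm12125 had 0.012 and 0.067 FPKM in SSCs, against 1.76 and 1.45 FPKM in FGSCs. Gm13736, 100% identical to Srp9 over the aligned stretch, had 12.5 FPKM in SSCs, against 19.09 FPKM in FGSCs (-0.59). On the SSC side, RP24-269A16.6, a Topbp1 pseudogene, had 1.17 FPKM in SSCs and was listed at 0 in FGSCs. Reads of a parent gene that were placed on its copy cannot be told from reads of the copy itself. In all, 29 class o transcripts had a host with such a similar gene elsewhere.

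Of the 7 transcripts whose host was not in GENCODE M21, Gm27939 had the largest difference of the class, with 0.033 FPKM in SSCs, against 7.198 FPKM in FGSCs (-3.85). Gm20563, named Selenok-ps8 by RefSeq, was listed at 0 in SSCs and had 1.89 FPKM in FGSCs.

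**Figure D4:**
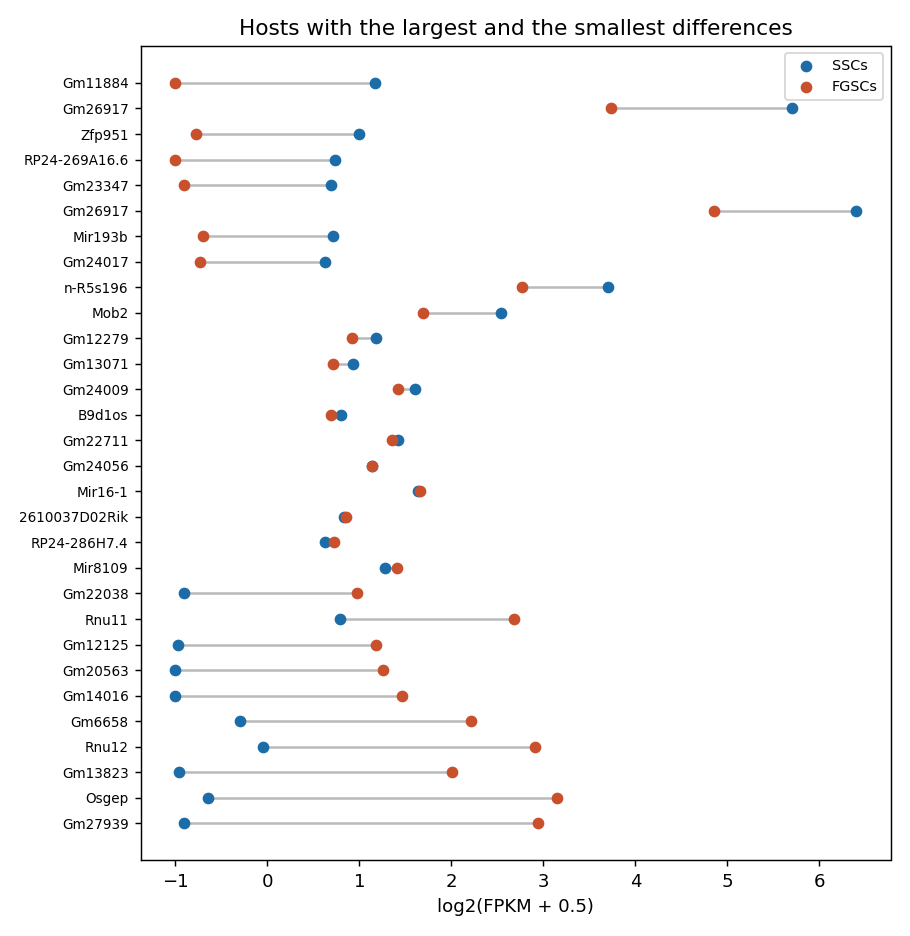
Level in SSCs and FGSCs as log2(FPKM + 0.5) (x axis) of the class o transcripts with the largest differences in each direction and with the smallest differences, 1 row per transcript, named by host. A grey line joins both values. At the top Gm11884 had 1.76 FPKM in SSCs and was listed at 0 in FGSCs, and at the bottom Gm27939 had 0.033 FPKM in SSCs, against 7.198 FPKM in FGSCs.

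At 23 loci 2 or more class o transcripts were assembled, 60 in all. At 4 loci all of them had the higher value in SSCs, at 14 all had it in FGSCs, and at 5 they were mixed. Higher values in FGSCs were the more frequent in general. Among single transcripts with the level, 96 of 151 in class o and 6956 of 12019 over all classes had the higher value there. Transcripts of 1 locus share exons and reads and are not independent of each other. The mixed loci were those of Snora24, Mir666, Mir5627, Mir17hg and 2610037D02Rik. Gm25270, an snRNA gene, had transcripts at 0.489 and 0.065 FPKM in SSCs, against 1.07 and 1.06 FPKM in FGSCs. Those of the lncRNA gene Gm27188 had 0.111 FPKM and close to 0 in SSCs, against 0.436 and 0.457 FPKM in FGSCs, and those of Gm25377, a snoRNA gene, were listed at 0 in SSCs and had 0.541 and 0.336 FPKM in FGSCs. The loci of Gm10647, A430110L20Rik and Gm23499 had levels under 0.5 FPKM and differences of -0.18 to -0.00217.

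**Figure D5:**
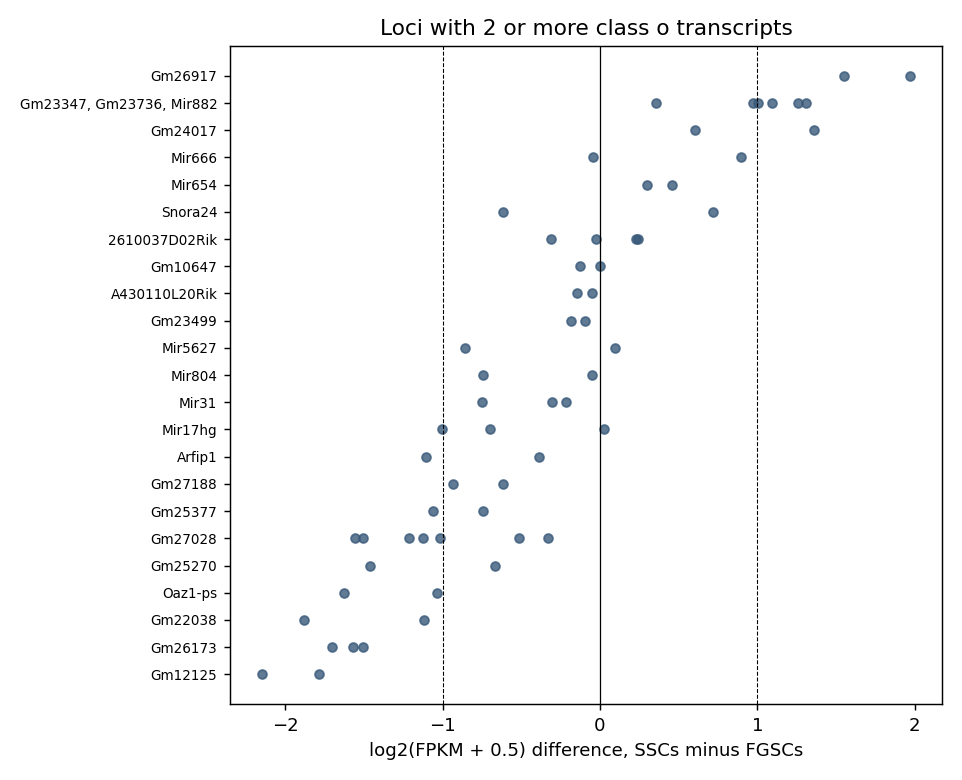
Differences of the 60 class o transcripts at the 23 loci that held 2 or more, as log2(FPKM + 0.5) in SSCs minus FGSCs (x axis), with 1 row per locus and 1 point per transcript. Dashed lines mark a difference of 1 in each direction, and the rows of Gm26917 and Gm12125 lie at the SSC and FGSC ends.

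Of the 19 gene lists, 6 had a host among the class. The list of small RNA host genes had 28 hosts with 40 transcripts, of which 31 had the level, 3 were higher in SSCs (9.68%, against 23.2% of all transcripts) and 4 in FGSCs (12.9%, against 31.0%). The ribosomal protein list had Rpl31-ps6, a pseudogene under the level. The others were the lists of RNA processing (Srsf12), translation and tRNA (Osgep), DNA repair (Nhej1) and zinc finger genes (Zfp951 and Etohi1). No host was a listed germ cell, self-renewal or oocyte gene, and none was a listed marker of Sertoli, granulosa, Leydig, theca, stromal, myoid, endothelial or blood cells, so that these lists say nothing on the make-up of the sorted cells.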

How the data were processed

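SSCs and FGSCs had 3 libraries each. The authors aligned reads to mm10 and assembled them. The submitters' processing notes list TopHat2, Cufflinks and version 2.1.1 of Cuffdiff. Scripture and Cuffcompare are named in the methods of the study. The deposited FPKM values are 1 per transcript and cell type, made by the authors from all libraries of a cell type. Deposited columns of log2 fold changes, test scores, p-values, q-values and significance marks hold the authors' own comparison and were not used. Depth per transcript is unknown, and no test was run because the values used here are 1 per cell type. Per-sample columns left out numbered 0.

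Transcripts of class o were taken from the table, starts were made 1-based, and hosts were matched by transcript ID to GENCODE M21. Differences used a pseudocount of 0.5 FPKM, a minimum of 0.5 FPKM in either cell type and a limit of 2-fold (1 on the log2 scale). Hosts of 1 exon and up to 5000 bp were compared with all GENCODE M21 transcripts by BLAST 2.17.0 (90% identity over 80% of the length). The calling step was tested on simulated data. Python 3.11.15, pandas 2.3.3, NumPy 2.4.6 and matplotlib 3.10.9 were used.

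The transcripts named are the 10 with the largest difference in each direction and at least 1 FPKM in the higher cell type, the 10 with the smallest and at least 1 FPKM in both, the 5 highest in each cell type, hosts with 2 or more transcripts, up to 4 hosts per gene list and the transcript at Rnu11, which the study names. The study spells the identifier of the Rnu11 transcript with TCONC, read here as TCONS, and lists it among lncRNAs amplified by RT-PCR. For its selected lncRNAs the study reports qRT-PCR patterns that followed the FPKM. Other transcripts were named after their values were seen. The members and lists were chosen with earlier results of these data known. Alternatives changed the pseudocount, minimum, limit, scaling, the authors' test status and the summing per host. Sequences withheld for evaluation are not reported here.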

Additional observations from a re-analysis of the deposited data

How the results depend on the processing

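No paired analysis was possible because the table holds 1 value per cell type, and for the same reason no replicate could be left out. The count higher in SSCs (14) was 28 with a pseudocount of 0.1, 6 with a pseudocount of 1, 8 with a minimum of 1 FPKM and 1 with a limit of 4-fold. The count higher in FGSCs (44) was 22 with a pseudocount of 1 and 8 with a limit of 4-fold, and the median difference was -0.69 with a pseudocount of 0.1. Counts over all transcripts are not given for these settings, so that the shifts are not read as particular to class o. With a minimum of 1 FPKM, 16 transcripts were seen in SSCs but not FGSCs, 38 in FGSCs but not SSCs and 28 in both cell types. These were 82 in all, and over all classes 741 of 4299 were seen in both. With no minimum the class o counts were 4, 19 and 178. Equal medians and quantile normalization moved the median difference of all transcripts from -0.42 to -0.30 and -0.28, with 20 and 19 class o transcripts higher in SSCs and 37 and 36 in FGSCs. Leaving out hosts with a similar gene elsewhere, an alternative chosen after seeing the data, gave 11 higher in SSCs and 35 in FGSCs. Of the named transcripts, 17 fell under the limit with a pseudocount of 1, 3 with equal medians and 6 after quantile normalization, while 5 came past it with a pseudocount of 0.1, 3 with equal medians and 3 after quantile normalization, among these Gm13736 (-1.44). None of the 58 counted differences changed direction after quantile normalization, a count added after seeing the data, as were those by kind of host. The other settings could not have changed a direction among these 58. A pseudocount leaves the sign of a difference as it is. Equal medians multiply each cell type by 1 factor, here too small to reverse a difference past 1. Small differences did change sign, at 8 named transcripts with equal medians and at 9 after quantile normalization. With equal medians Gm24056 had 0.17, Mir16-1 0.17 and 2610037D02Rik 0.14, against 0.053 at RP24-286H7.4. The order of the smallest differences thus depends on the scaling.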
